A study of Drosophila melanogaster with 90 samples.

Results

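The cytochrome P450 genes of Drosophila melanogaster were followed in whole pupae that had gone through metamorphosis under altered gravity. Members were taken by name alone, as the probe sets whose single gene symbol is Cyp followed by a number, letters and a number, without the ecdysteroid enzyme Cyp18a1 and the cyclophilins that share the prefix. This gave 79 genes on 80 probe sets, out of 11982 genes with a single symbol and 18769 probe sets tested. Cyp12e1 had a pair of probe sets and was described by the brighter one. By name the members fell into Cyp4 (22 genes), Cyp6 (23), Cyp9 (5), Cyp12 (5), Cyp28 (4), Cyp49 (1) and a group of 19 genes with 3-digit numbers, called the Cyp3xx group here.

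P450 enzymes are haem proteins that insert an oxygen atom into their substrate, with electrons passed on by a reductase, by cytochrome b5 or, in mitochondria, by ferredoxin. In insects some make hormones, cuticular lipids or parts of the cuticle, while many members of the Cyp4, Cyp6, Cyp9, Cyp12 and Cyp28 subfamilies are known for handling plant toxins and insecticides and are active in the midgut, the Malpighian tubules and the fat body. Their RNA levels are known to move with diet, xenobiotics, tissue and age.

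All animals were of the Oregon R strain and were collected as late pupae just before eclosion, after about 3.5 days at 24°C according to the labels, and each array measured the RNA of whole pupae (Affymetrix Drosophila Genome 2). In the random positioning machine (RPM), a device that turns samples to simulate weightlessness, 0g pupae and 1g controls were kept open, open after a cold step, or in closed containers after a cold step. In the superconducting magnet, levitated pupae (0g*), pupae at the magnetic control position (1g*) and at the heavier position (2g*) were kept in closed containers with or without a cold step, beside 1g controls outside the magnet that were also kept open. In the large diameter centrifuge (LDC), pupae at 12g, at 6g and on the rotational control, as well as 1g controls, were kept open or closed, each with or without a cold step. The cold step (ΔT) came before the gravity treatment and lasted 3 days at 12°C in the series' design text, and the closed container limited the oxygen (↓O2). The 90 arrays formed 32 groups of 2 to 4, and "open" without further words means neither constraint.

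The 1g controls shared the strain, the stage and the containers with the exposed pupae, and replicate arrays are labelled biological replicates without further detail, so p-values measure the spread between these arrays only. The study's methods describe several pupae from each condition, and their sex is not given in the sources used here. As whole animals were measured, fewer cells of a type and less RNA per cell cannot be told apart. In the LDC, 19 arrays belonged to a first and 21 to a second experiment. The closed 12g and 6g groups lay wholly in the second and the closed 1g and rotational groups wholly in the first. By contrast, the open 1g and rotational groups held 1 first and 2 second arrays each. The array names set magnet arrays with and without the cold step, and likewise open RPM arrays, in separate number series. Whether these were separate runs is not stated in the sources used here, so run and cold step cannot be told apart there. Array medians ran from 5.03 to 5.15 in the RPM, from 4.99 to 5.11 in the magnet and from 6.37 to 6.53 in the LDC on the log2 scale, so no level was compared between facilities. Arrays of one group correlated with r between 0.952 and 0.996 over all probe sets. All differences below are log2 differences with their standard error from limma, and a member was called when its p, adjusted by Benjamini-Hochberg over all probe sets, was under 0.05.

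The P450 genes spanned nearly the whole range of the array, and 51 of the 79 lay above the median of all probe sets in each facility. The highest mean in each facility belonged to Cyp4g1, the oenocyte enzyme that completes the synthesis of cuticular hydrocarbons, with log2 values of 11.78 in the RPM, 12.20 in the magnet and 13.07 in the LDC. Cyp4e2 was next in all facilities, at 9.48, 9.68 and 10.57. Brightness also depends on the probes, so this order is one of probe set values and not of RNA per length. At the other end, Cyp316a1 was lowest in the RPM (3.00) and the magnet (3.03) and Cyp4ac2 in the LDC (4.36). Cyp4d21, also known as sex-specific enzyme 1 and linked to male mating behaviour, was near the bottom too, at 3.22 in the RPM.

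**Figure D1:**
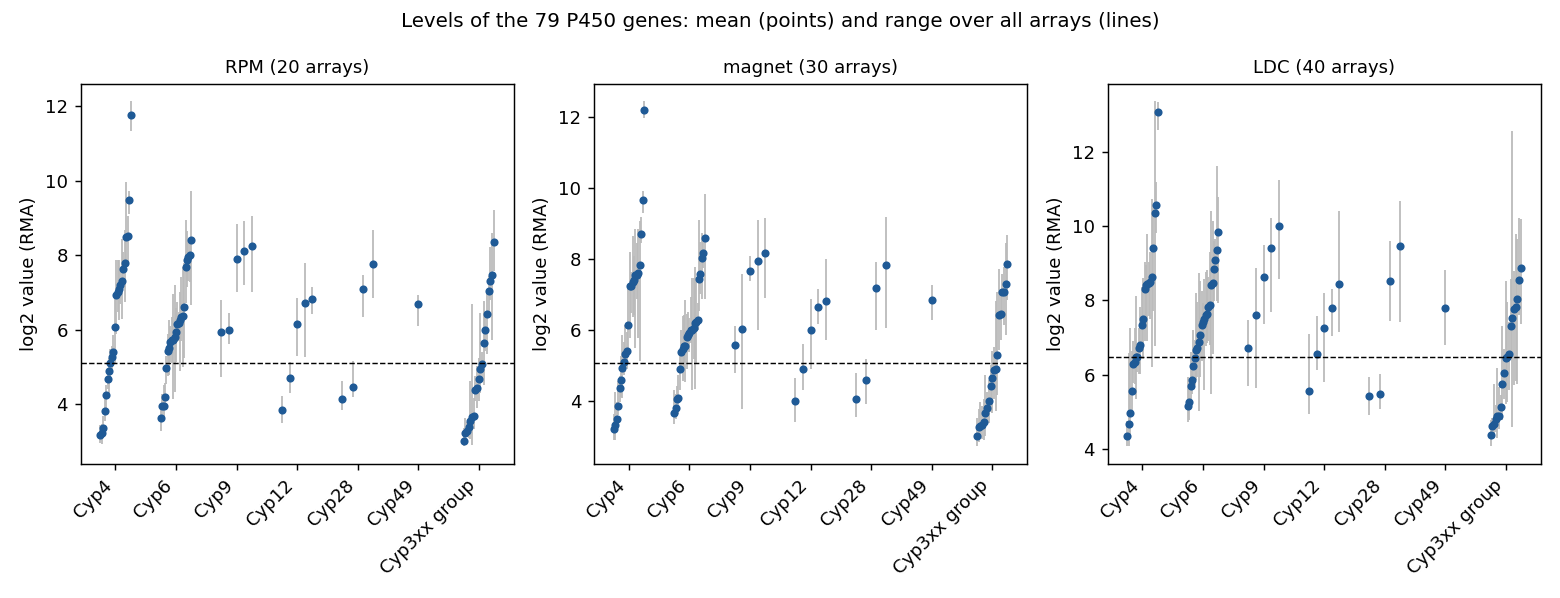
Mean log2 value of each of the 79 P450 genes (points) over all arrays of a facility, with the lowest and highest array (lines), by subfamily, against the median of all probe sets (dashed). Cyp4g1 stands highest in each panel with a short line, while Cyp313a1 in the LDC has the longest line, between 4.58 and 12.55.

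The members differed widely in how far they moved. Cyp4g1 kept within 0.81 log2 units over the 20 RPM arrays, 0.48 over the 30 magnet arrays and 0.74 over the 40 LDC arrays. By contrast, Cyp313a1 covered 7.97 units in the LDC, between 4.58 and 12.55, and Cyp4e3 covered 6.59, between 6.78 and 13.37. The number of members with a range over 3 units was 2 in the RPM, 9 in the magnet and 14 in the LDC, and the median range was 1.14, 1.32 and 1.99. A range widens with the number of arrays and settings, which differed, so these values do not show that members moved more in any one facility. Another 5 members, Cyp28c1, Cyp308a1, Cyp316a1, Cyp4ad1 and Cyp6u1, named here after their values were seen, were called in none of the 68 comparisons.

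Most calls came with the cold step, with 66 of the 79 members called in at least 1 of 15 comparisons. How many of all probe sets were called at least once over the 15 was not counted, so the 66 has no background beside it. In the magnet, where run and cold step cannot be told apart, most of the cold step calls were decreases. After the cold step in open 1g pupae 4 members rose and 34 fell, where 21.8% of all probe sets were called, 11.2% higher and 10.6% lower. In closed 1g pupae 9 rose and 24 fell (16.9% of all probe sets), at 1g* 14 rose and 25 fell (23.9%), at 2g* 4 rose and 18 fell (8.36%), and at 0g* 3 rose and 9 fell (5.94%). The median over the 79 members was -0.38 in open 1g pupae, against -0.05 over all probe sets, and -0.27 at 1g*, against -0.09. Without levitated replicate 3 after the cold step, or levitated replicate 2 without it, the count at 0g* was 7.

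The genes that fell in all 5 magnet comparisons were Cyp6g1, Cyp6a20, Cyp9b1, Cyp9f2, Cyp12a4, Cyp28d1 and Cyp4d20. Cyp6g1, whose overexpression gives resistance to DDT, read 6.96, 7.05 and 6.89 after the cold step in open 1g pupae, against 9.34, 9.80 and 9.81 without it. In closed 1g pupae it read 7.38, 7.76 and 8.06 after the cold step and 9.58, 9.33 and 9.42 without it. Each cold step array lay below each array without it, by -2.68 ± 0.19 on average in open pupae (6.42-fold, adjusted p = 1.12e-10) and by -1.71 ± 0.19 in closed ones (adjusted p = 7.55e-07). At 0g* the difference was smaller, with 8.56, 8.94 and 8.77 after the cold step and 9.49, 9.50 and 9.49 without it (-0.74 ± 0.19, adjusted p = 0.0192). The test of whether the cold response at 0g* differed from that at closed 1g called no member.

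Cyp9b1 gave the same picture over a wider range. It read 4.25, 4.73 and 3.79 after the cold step in open 1g pupae, against 6.74, 7.36 and 7.58 without it, a 7.84-fold difference (-2.97 ± 0.22, adjusted p = 3.44e-10). At 0g* it read 5.85, 6.30 and 5.68 after the cold step and 7.17, 7.19 and 7.37 without it (-1.30 ± 0.22, adjusted p = 0.00103). Its neighbour on chromosome 2R, Cyp9b2, fell by 1.89 at 1g* (adjusted p = 9.27e-07) and by 1.40 at 2g* (adjusted p = 0.000168). Cyp6a20, which is linked to aggression in adult males, read 4.34, 4.53 and 4.54 after the cold step in open 1g pupae and 6.93, 6.96 and 7.67 without it (-2.72 ± 0.29, adjusted p = 6.95e-08). At 0g* its groups overlapped, since 1 array without the cold step read 6.59 and 1 array after it read 6.60, although the difference was called (-1.21 ± 0.29, adjusted p = 0.0112).

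Further genes linked to toxin handling fell in some of these settings, though Cyp6a8, described below, did not. Cyp6a2, linked to insecticide resistance and induced by phenobarbital, fell by 2.15 at 1g*, by 2.13 in closed 1g pupae and by 1.92 in open ones (adjusted p = 1.35e-05, 3.16e-05 and 4.86e-05). Cyp28d1, which contributes to nicotine tolerance, fell by 2.38 in open 1g pupae (adjusted p = 5.25e-09) and by 0.89 at 0g* (adjusted p = 0.0118). Cyp12a4, a mitochondrial enzyme linked to lufenuron resistance, fell least at 2g* (-0.74, adjusted p = 0.00972) and most at 1g* (-1.72, adjusted p = 1.2e-07). The deepest single fall was that of Cyp4e3 in open 1g pupae, with 6.01, 5.53 and 5.14 after the cold step and 8.53, 8.29 and 9.09 without it (-3.08 ± 0.38, adjusted p = 9.45e-07). By subfamily, 4 of the 5 Cyp9 genes, 4 of the 5 Cyp12 genes, 3 of the 4 Cyp28 genes, 10 of the 23 Cyp6 genes, 10 of the 22 Cyp4 genes and 3 of the 19 Cyp3xx genes fell there.

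A smaller set rose after the cold step in the magnet. Cyp4c3 rose in all 5 comparisons, most at 1g*, where it read 8.60, 8.85 and 8.41 after the cold step and 5.51, 5.99 and 5.58 without it (2.93 ± 0.24, 7.60-fold, adjusted p = 2.51e-09). Cyp313a4 read 6.53, 6.83 and 6.49 after the cold step in open 1g pupae and 3.99, 4.24 and 4.27 without it (2.45 ± 0.21, adjusted p = 1.86e-09), and it rose also at 1g*, at 2g* and in closed 1g pupae. At 0g* Cyp313a4 was not called and its groups overlapped, with 4.38, 4.66 and 4.82 after the cold step and 4.05, 4.63 and 4.09 without it. Cyp6a8, a gene known to respond to caffeine and phenobarbital, rose in the 4 closed comparisons, by between 1.01 at 2g* and 1.65 at 0g* (adjusted p = 0.00421 and 0.000101). Cyp310a1 rose in the same 4, by up to 1.99 in closed 1g pupae (adjusted p = 7.59e-05). Cyp301a1, needed for the adult cuticle, rose by 0.95 at 1g* and by 0.54 in closed 1g pupae (adjusted p = 0.000388 and 0.0439). Cyp4g1 was called in none of the 5.

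**Figure D2:**
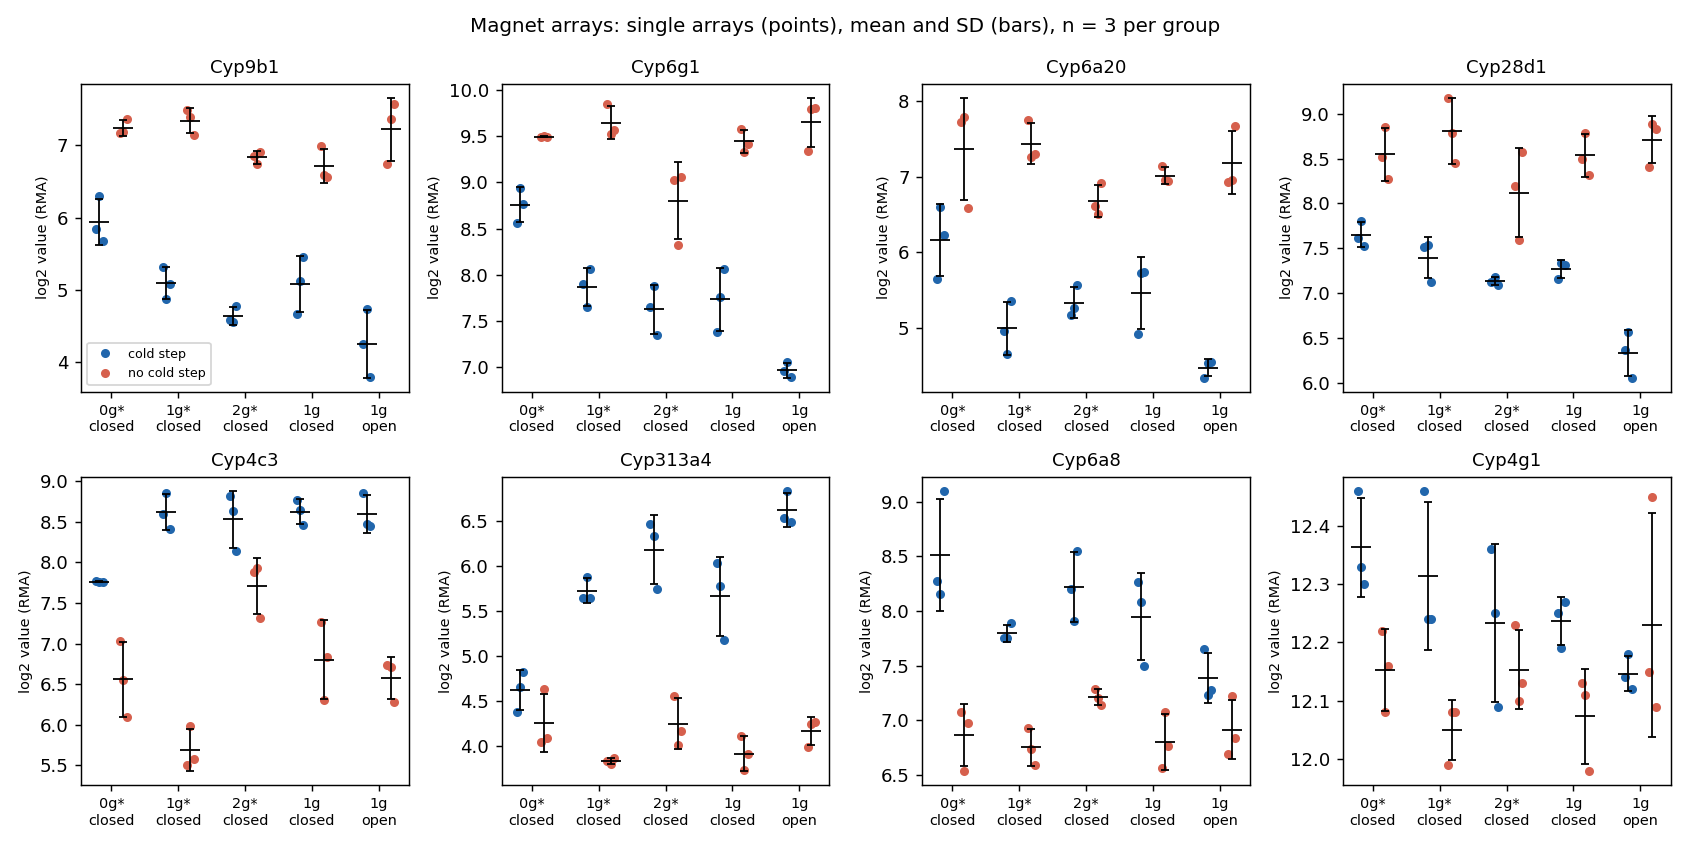
Log2 values of 8 P450 genes on the single magnet arrays (points), with the mean and SD (bars, n = 3), after the cold step (blue) and without it (red) at each position. Cyp9b1, Cyp6g1, Cyp6a20 and Cyp28d1 are lower after the cold step, Cyp4c3, Cyp313a4 and Cyp6a8 higher, and Cyp4g1 stays between 11.98 and 12.46 on all arrays.

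Other gene lists also held calls in these comparisons, and their part in the result was not tested. In open 1g pupae 21.8% of all probe sets were called. All 14 accessory gland genes measured (symbols of Acp and a number, without the cuticle gene Acp65Aa) fell after the cold step in open 1g, closed 1g and 1g* pupae, 8 of them at 0g* and 6 at 2g*, and their summed level lay between 7.78 and 8.15 on the log2 scale after the cold step in open 1g pupae and between 10.66 and 12.39 without it. Of 69 cuticle protein genes, 35 rose and 7 fell in open 1g pupae. Of 8 Malpighian tubule genes 1 rose and 5 fell there, and of 30 midgut genes none rose and 9 fell. Of 7 fat body genes 1 rose and 2 fell, and of 6 oenocyte genes none rose and 2 fell. Of 10 redox partner and ecdysteroid P450 genes outside the member set, 1 rose and 4 fell in open 1g pupae. Cyt-b5-r, which encodes a cytochrome b5 relative, fell by 2.67 (adjusted p = 6.43e-09). The ecdysteroid P450 gene shd, whose product makes the active moulting hormone, fell by 0.99 (adjusted p = 0.000643). Of 8 regulators of detoxification and hormone response, 2 rose and none fell in open 1g pupae.

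In the LDC most calls after the cold step were rises in the 1g, rotational and 6g settings. The median over the 79 members was 0.08 in open 1g pupae, 0.26 on the open rotational control, 0.17 at open 6g and 0.12 at closed 6g. Over all probe sets it was -0.04, 0.01, -0.02 and -0.06. In open 1g pupae 43 members lay above 0 and 36 below, called or not. In open 1g pupae 20 members rose and 9 fell (16.0% of all probe sets were called), on the rotational control 28 rose and 9 fell (20.4%), at 6g 23 rose and 10 fell (22.8%, with 10.4% higher and 12.4% lower), and at 6g in closed containers 24 rose and 13 fell (16.0%). Elsewhere in the LDC few members were called. Open 12g pupae had 0 rises and 1 fall (0.597%), closed 12g pupae 2 and 2 (1.57%), closed 1g pupae 2 and 0 (1.41%), and the closed rotational control 4 and 2 (3.32%). These small counts rested on single arrays, as they were 0 to 2 in closed 12g and 0 or 1 in closed 1g pupae without any one array, 1 or 2 on the closed rotational control without closed cold step replicate 1 or any one array with no cold step, and 0 in open 12g pupae without any one array but cold step replicate 3. Fitted within their own experiment alone they were 5 in open 12g pupae (3% of all probe sets), 10 in closed 12g pupae (4.05%), 6 in closed 1g pupae (4.82%) and 12 on the closed rotational control (7.65%). At 6g all arrays were of the second experiment. There the count was 21 instead of 33 without open cold step replicate 1 or open replicate 2 of the group without it, and in closed containers 23 or 24 instead of 37 without closed cold step replicate 1 or either closed replicate without it.

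Of the 38 members that fell in at least 1 magnet comparison, 24 rose in at least 1 LDC comparison and 4 fell in one. A further 11 rose in the magnet and fell in the LDC, and 4 rose in both. These overlaps were not counted over all probe sets. Device and experiment differed together between the facilities and cannot be told apart, and no test was made between them.

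Cyp313a1 rose furthest. At 6g it read 11.49 and 11.26 after the cold step and 4.71 and 4.58 without it (6.73 ± 1.13, adjusted p = 8.01e-05). The values without the cold step lay close to the lowest member mean of the LDC (4.36), and the deposited values do not show whether they were above background, so no fold is given. In closed 6g pupae it read 11.40 and 10.72 after the cold step and 5.25 and 4.80 without it. In open 1g pupae it read 10.22, 9.49 and 11.96 after the cold step, against 5.30, 4.77 and 4.86 (5.58 ± 0.93, adjusted p = 9.82e-05). The groups were wide apart in all of these. In open 12g pupae, however, it read 7.47, 7.35 and 6.58 after the cold step and 5.30 and 8.56 without it, which overlap, and in closed 12g pupae 7.60 and 5.90 against 10.02, 8.79 and 10.56 (-3.04 ± 1.04, adjusted p = 0.141). In the magnet this gene read 4.73 or less on every array and fell by 1.15 after the cold step in open 1g pupae (adjusted p = 0.000365).

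Most genes that fell after the cold step in the magnet rose here. Cyp6a20 read 10.40 and 9.82 after the cold step in closed 6g pupae and 6.23 and 5.48 without it (4.25 ± 0.50, 19.1-fold, adjusted p = 1.38e-06), and in open 6g pupae it rose by 3.04 (adjusted p = 5.76e-05). Cyp28d1 rose by 2.00 in open 1g pupae, by 1.96 on the rotational control, by 2.54 at 6g and by 2.71 at closed 6g (adjusted p between 3.93e-06 and 2.64e-05). It was the one member that rose also in closed 1g pupae and on the closed rotational control, by 1.38 and 1.88 (adjusted p = 0.022 and 0.00087), and on the rotational control the arrays read 10.62 and 10.40 after the cold step and 8.87, 8.44 and 8.57 without it. Cyp9f2 rose by between 1.47 and 2.27, and Cyp12a4 by between 1.77 and 2.38, in the open 1g, rotational and 6g settings and in closed 6g pupae. Cyp6g1 rose in the same 4, least on the rotational control, where its groups overlapped (0.65 ± 0.22, adjusted p = 0.0381), and most in closed 6g pupae, with 9.84 and 9.62 after the cold step and 7.92 and 8.19 without it (1.68 ± 0.27, adjusted p = 5.37e-05).

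Cyp4c3 was the clearest of the genes that fell. At 6g it read 6.81 and 6.81 after the cold step and 10.64 and 10.44 without it (-3.73 ± 0.53, 13.3-fold, adjusted p = 1.19e-05), and on the rotational control 6.88, 6.97 and 6.37 against 8.88, 10.47 and 10.74 (-3.29 ± 0.43, adjusted p = 9.49e-06). Cyp301a1 read 6.32 and 6.39 after the cold step at 6g and 8.64 and 8.61 without it (-2.27 ± 0.31, adjusted p = 1.04e-05). In the magnet Cyp4c3 had risen after the cold step in all 5 comparisons and Cyp301a1 in 2 of them. Cyp4g15, of the same CYP4G subfamily as Cyp4g1, fell by 1.74 in open 1g pupae (adjusted p = 1.89e-05) and by about as much on the rotational control and in open and closed 6g pupae (-1.88, -1.88 and -1.75). Cyp311a1, which acts in the lipid make-up of the gut epithelium, fell by 1.62 at 6g (adjusted p = 0.000149). Cyp4g1 itself rose by 0.29 in open 1g pupae (adjusted p = 0.0343), a small step for a gene at 13.09, 13.06 and 13.20 after the cold step and 12.60, 12.98 and 12.89 without it.

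**Figure D3:**
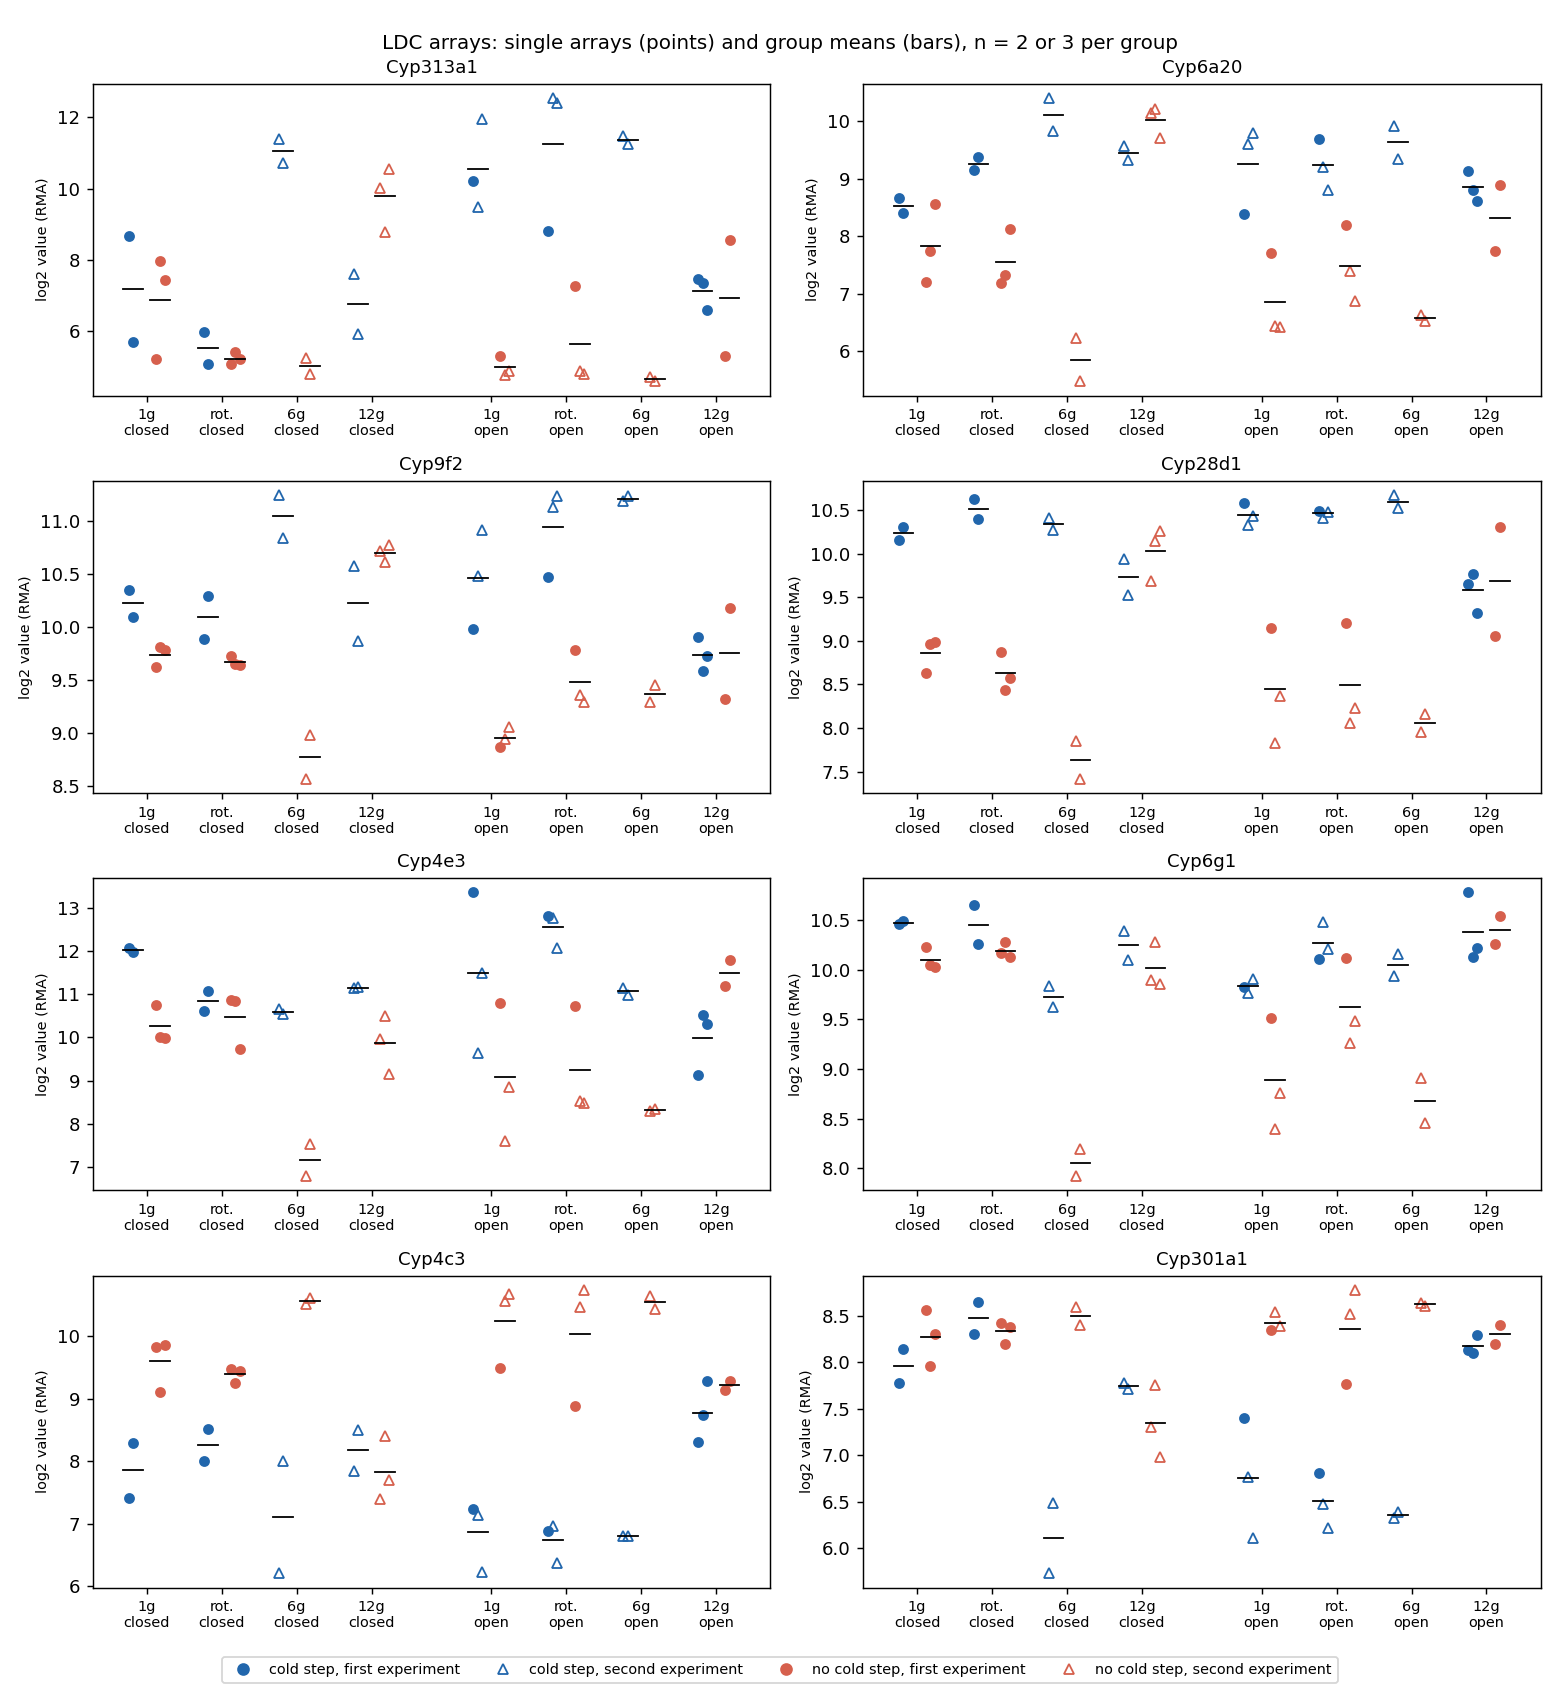
Log2 values of 8 P450 genes on the single LDC arrays (points, with group means as bars), after the cold step (blue) and without it (red), for the first experiment (filled circles) and the second (open triangles). In the 1g, rotational and 6g settings kept open, Cyp313a1 lies at 8.80 or above after the cold step and at 7.27 or below without it, whereas the open 12g arrays of both kinds overlap.

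Within single experiments the counts of members moved together with the share of all probe sets. Using the second experiment alone, 22 members rose and 13 fell in open 1g pupae (23.3% of all probe sets), and 34 rose and 10 fell on the rotational control (24.6%). Using the first alone, with 1 array an arm in these groups and the spread taken from the other first-experiment groups, 2 rose and 3 fell in open 1g pupae (2.65%), and 1 rose and none fell on the rotational control (1.36%). The accessory gland genes moved along again, with 13 of 14 higher after the cold step in open 1g pupae, in open 6g and in closed 6g pupae, 12 on the rotational control, and none in open 12g pupae. In open 6g pupae their summed level lay between 14.63 and 14.87 after the cold step and between 8.82 and 9.20 without it. Of the 69 cuticle protein genes 3 rose and 32 fell there, of the 8 Malpighian tubule genes 5 rose, and of 30 midgut genes 6 rose and 1 fell, but on the rotational control 20 midgut genes rose. In open 6g pupae 3 of 7 fat body genes rose and 1 fell, and 1 of 6 oenocyte genes rose and 2 fell. Their part in the result was not tested. Of the 10 redox partner and ecdysteroid P450 genes, 3 rose and 1 fell at 6g. Cyt-b5-r rose by 2.03, the ferredoxin gene Fdx2 by 1.87 and Cyt-b5 by 0.82 (adjusted p = 0.0024, 5.46e-05 and 0.000122). Of 8 regulators of detoxification and hormone response, none rose and 4 fell at 6g, among them the ecdysone receptor gene EcR (-2.33, adjusted p = 0.00134), whereas 1 rose and none fell in open 1g pupae, 1 rose and 1 fell on the rotational control, and 2 rose and 2 fell in closed 6g pupae.

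In the RPM the share of members called after the cold step at 1g was near that of all probe sets. In open 1g pupae 7 members rose and 6 fell, which is 16.5% of the members beside 13.6% of all probe sets. At 0g none rose and 3 fell (1.43%). Cyp6g1 read 9.27, 9.19 and 9.18 after the cold step in 1g pupae, against 7.77, 6.65 and 8.29 (1.64 ± 0.47, adjusted p = 0.0265), and Cyp12a4 rose by 1.31 (adjusted p = 0.0111), both opposite to the magnet. Cyp310a1 fell by 1.40 (adjusted p = 0.0195), with 5.19, 4.90 and 4.82 after the cold step and 6.74, 6.76 and 5.61 without it. Cyp309a1, Cyp6d4 and Cyp9c1 fell both at 0g, by 1.03, 0.99 and 0.97, and at 1g, by 1.01, 0.96 and 0.82 (adjusted p between 0.00982 and 0.0464). The 1g count rested on single arrays, as it was 0 without 1g replicate 2 kept at constant temperature, 25 without its replicate 3 and 3 without its replicate 1, and 7, 5 and 3 without cold step replicates 1, 2 and 3. At 0g the count was 0 without any one of the arrays except replicate 3 kept at constant temperature.

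**Figure D4:**
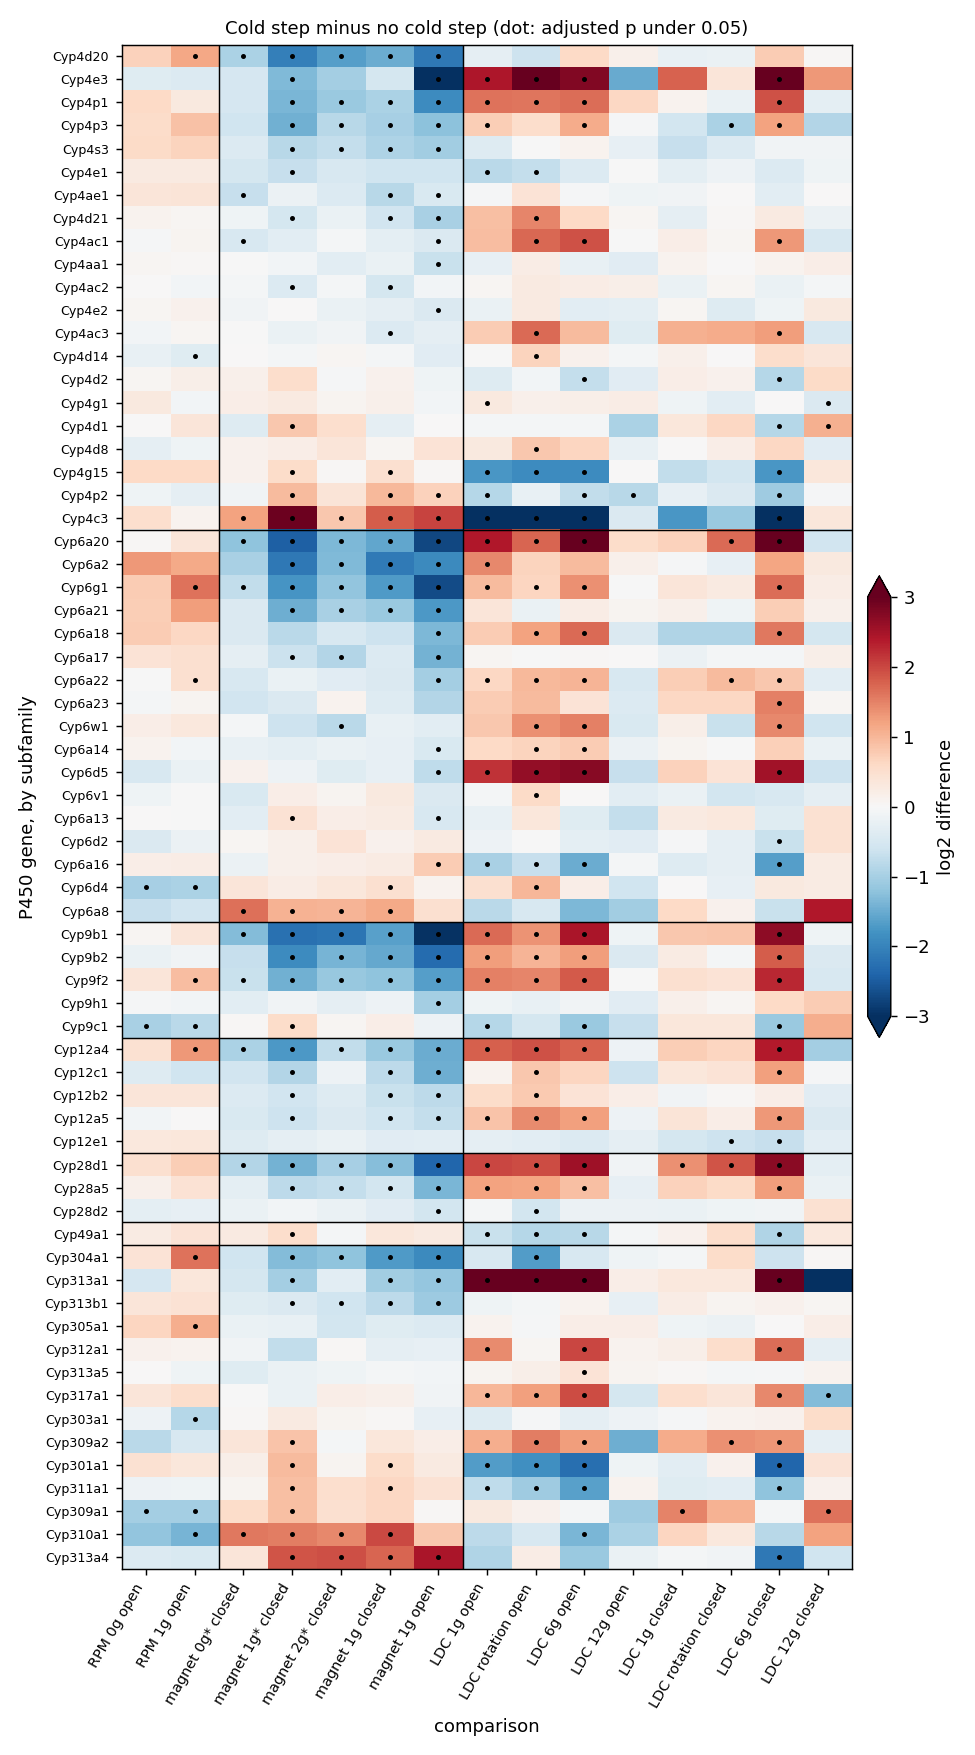
Log2 difference, cold step minus no cold step, of the 66 P450 genes called in at least 1 of 15 comparisons (rows, by subfamily, dots marking adjusted p under 0.05), with colours cut at 3 units either way. The magnet columns are mostly blue. In the LDC columns of the open 1g, rotational and 6g groups and of closed 6g most dots mark rises, while Cyp4c3 runs the other way.

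Genes that lie side by side did not always move together. By the order in the RefSeq gene table (Release 6), 41 members sat in 14 runs of neighbours with at most 1 other gene between them. In the longest run, 9 genes on chromosome 2R, the cold step in open 1g pupae of the magnet lowered Cyp6a20, whereas Cyp6a8 in the same run rose in the 4 closed settings. In the run of Cyp6g1, Cyp6g2 and Cyp6t3, the last a gene of ecdysteroid synthesis in larvae, Cyp6g1 fell by 2.68 in open 1g pupae and Cyp6t3 read 3.54 after the cold step and 3.74 without it on average (-0.19 ± 0.16, adjusted p = 0.362). Cyp6t3 and Cyp6g2 lay low in the magnet, with means of 3.68 and 4.09, where a fall like that of Cyp6g1 would be hard to see. Cyp9b1 and Cyp9b2 fell together in 4 of the magnet comparisons and rose together in 4 of the LDC. The array's probes can share signal between such close copies, and the share of any such signal was not measured.

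Few P450 genes were called at the RPM and magnet positions against 1g, and the magnet pairs also differed in field. At 0g in the RPM none was called in any environment, where 0.00533% of all probe sets were called in open pupae and 0% in the others. At an unadjusted p under 0.05 there were 13 members in open pupae (13.9% of all probe sets), 1 in open cold step pupae (1.51%) and 6 in closed cold step pupae (9.63%). Cyp6g1, at 8.76, 8.88 and 8.73 in open 0g pupae and 7.77, 6.65 and 8.29 in open 1g pupae, differed by 1.22 ± 0.47 without passing the test (adjusted p = 0.254). Against closed 1g controls in the magnet, no member was called at 0g*, 1g* or 2g* without the cold step (0%, 0.0107% and 0.416% of all probe sets), nor at 1g* and 2g* after it (0.0426% and 0.101%). At an unadjusted p under 0.05 there were 4, 5 and 21 members without the cold step (3.78%, 4.30% and 8.93% of all probe sets) and 7 and 6 after it (2.67% and 3.44%). Leaving out 1g replicate 1 or 2g* replicate 3 without the cold step gave 2 and 1 calls at 2g*, and leaving out 2g* replicate 1 after it gave 1. At 0g* after the cold step 2 rose and 1 fell (0.501%), which became 0 without 0g* replicate 2 or 1g replicate 1 and 7 without 1g replicate 3. Cyp304a1 rose by 1.12 there (adjusted p = 0.0191), with 7.51, 7.72 and 7.23 in levitated pupae and 5.87, 6.60 and 6.63 in 1g controls.

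Positions inside the magnet differed more from each other. Only 0g* and 2g* shared a field strength, so field and gravity cannot be told apart in the pairs with 1g*. After the cold step 9 members were higher and 4 lower at 0g* than at 1g* (2.49% of all probe sets), 9 higher and 2 lower than at 2g* (3.85%), and none differed between 2g* and 1g* (0%, with 2 members and 1.94% of all probe sets at an unadjusted p under 0.05). Cyp4d1 read 6.47, 6.64 and 6.37 at 0g* and 7.87, 8.16 and 8.66 at 1g* (-1.74 ± 0.27, 3.33-fold, adjusted p = 0.000318). Cyp313a4 was lower at 0g* by 1.10 against 1g* and by 1.56 against 2g* (adjusted p = 0.00266 and 3e-05). The genes higher at 0g* included those that fell after the cold step, such as Cyp9b2, by 1.07 against 1g* and 1.28 against 2g* (adjusted p = 0.00822 and 0.000872), and Cyp6g1, by 0.89 and 1.13 (adjusted p = 0.00822 and 0.000429). The count against 1g* was between 5 and 9 when any one array was left out. It was 5 without 0g* replicate 2 or 1g* replicate 2, and 7 without 1g* replicate 1 or 3.

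Without the cold step, 2 members were higher and 4 lower at 2g* than at 1g* (3.36% of all probe sets), 1 higher and 2 lower at 0g* than at 2g* (0.352%), and none at 0g* against 1g* (0.0213%, with 5 members and 5.69% of all probe sets at an unadjusted p under 0.05). Cyp4c3 read 7.88, 7.93 and 7.31 at 2g* and 5.51, 5.99 and 5.58 at 1g* (2.01 ± 0.24, adjusted p = 1.69e-05), and 7.03, 6.55 and 6.10 at 0g*. Its lowest arrays without the cold step were thus those at 1g*. Cyp12a4 was lower at 2g* by 1.01 (adjusted p = 0.00154). The counts were 3 for 2g* against 1g* without 1g* replicate 1 or 2g* replicate 2, and, for 0g* against 2g*, 0 without 0g* replicate 2 or 2g* replicate 1 or 2 and 1 without 0g* replicate 3.

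In the LDC the rotational control gave no call among the 79 members against 1g in any environment. The share of all probe sets called was 0.016% in open, 0.0533% in open cold step, 0% in closed and 0.00533% in closed cold step pupae, and 9, 19, 0 and 2 members had an unadjusted p under 0.05 (6.36%, 15.5%, 1.68% and 3.51% of all probe sets). After the cold step the second experiment alone gave 16 members higher on the rotational control than in open 1g pupae (9.28% of all probe sets) and the first alone none (0.0959%). With both experiments the count was 18 without rotational replicate 1, 2 without 1g replicate 1 and 4 without 1g replicate 3. In open pupae it was 1 without 1g replicate 1. In open pupae 1 member, Cyp6g1, was called at 12g (0.149% of all probe sets), with 7 and 0 calls without 12g replicates 1 and 2 and 12 and 0 without 1g replicates 1 and 2. The 12g arrays were all of the first experiment, and no member was called with the experiment as a term (0.032%), within the first experiment alone (0.474%) or with only the groups compared (0%). At 6g none was called (0%, with 3 members and 7.51% of all probe sets at an unadjusted p under 0.05). After the cold step in open containers 9 members were higher and 8 lower at 12g than at 1g (10.8%), and none at 6g (0.213%, with 10 members and 15.9% at an unadjusted p under 0.05).

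Among these open cold step pupae, Cyp301a1 read 8.13, 8.10 and 8.29 at 12g and 7.40, 6.77 and 6.11 at 1g (1.41 ± 0.26, adjusted p = 0.00182), and Cyp4c3 was higher by 1.91 (adjusted p = 0.00726). Cyp313a1 was lower by 3.42 (adjusted p = 0.0211), with 7.47, 7.35 and 6.58 at 12g and 10.22, 9.49 and 11.96 at 1g. Cyp309a2 was lower by 1.85 (adjusted p = 0.00123). Of 14 accessory gland genes 12 were lower at 12g here, with a summed level between 9.95 and 10.72, against 13.28 to 14.09 at 1g. Of 30 midgut genes 2 were lower, of 8 Malpighian tubule genes 1 was higher and 1 lower, and of 6 oenocyte genes 2 were higher. Their part in the result was not tested. The 12g arrays were all of the first experiment, and against the single 1g array of that experiment 6 members were higher and 7 lower (5.03% of all probe sets). The count of 17 was 6 without 12g replicate 1, 7 without 12g replicate 2 and 6 without 1g replicate 3.

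In closed containers 10 members were higher and 7 lower at 12g than at 1g (17.5% of all probe sets), 3 higher and 11 lower at 6g (4.42%), none at 12g after the cold step (0.421%, with 11 members and 14.1% at an unadjusted p under 0.05) and 4 higher and 6 lower at 6g after it (6.40%). Here 12g and 6g lay in the second experiment and 1g in the first, so gravity and experiment cannot be told apart within these pairs. With the experiment as a further term, the counts without the cold step were 17 at 12g (8.63% of all probe sets) and 3 at 6g (0.725%). After it they were 1 at 12g (0.618%) and 4 at 6g (2.46%). Only the open 1g and rotational groups held both experiments, so this term was estimated from them and carried over to closed pupae. These counts therefore do not separate gravity from experiment. At 12g without the cold step the count was 10 and 9 without 12g replicates 1 and 3 and 8 without 1g replicate 1. At 6g it was 2 without either 6g array and 9, 7 and 7 without 1g replicates 1, 2 and 3, and after the cold step 1 without 6g replicate 1 and 6 and 2 without 1g replicates 1 and 2. Cyp6g1 was lower at 6g without the cold step, with 7.92 and 8.19 against 10.23, 10.05 and 10.03 at 1g (-2.05 ± 0.25, adjusted p = 1.56e-05). Of 14 accessory gland genes 9 were higher at 12g and 1 lower at 6g without the cold step. After it 13 were higher at 6g and none was called at 12g. Of 8 Malpighian tubule genes 4 were higher at 12g and 3 lower at 6g without the cold step. The part of these lists in the result was not tested.

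The comparison of 12g with 6g in closed containers without the cold step lay within 1 experiment and called 31 members, 22 higher and 9 lower, which is 39.2% of the members, where 12.5% of all probe sets were called, 5.92% higher and 6.56% lower. Cyp6a20 read 10.13, 10.21 and 9.71 at 12g and 6.23 and 5.48 at 6g (4.16 ± 0.46, 17.9-fold, adjusted p = 5.15e-07), and Cyp313a1 read 10.02, 8.79 and 10.56 against 5.25 and 4.80 (4.76 ± 1.04, adjusted p = 0.00172). No 12g array overlapped a 6g array in either gene. Cyp9b1 was higher by 2.58, Cyp28d1 by 2.40, Cyp6g1 by 1.96 and Cyp9f2 by 1.92 (adjusted p = 9.6e-06, 4.92e-06, 2.77e-06 and 3.96e-06). Cyp4c3 was lower by 2.73, with 7.39, 8.41 and 7.70 at 12g and 10.51 and 10.61 at 6g, and Cyp313a4 by 2.62, with 5.64, 5.33 and 6.68 at 12g and 8.53 and 8.47 at 6g (adjusted p = 0.000196 and 0.000224). By subfamily, 8 of the 23 Cyp6 genes were higher and 2 lower. Of the 5 Cyp9 and the 5 Cyp12 genes 3 each were higher, and of the 22 Cyp4 genes 4 were higher and 4 lower. Of the 4 Cyp28 genes 2 were higher, and of the 19 Cyp3xx genes 2 were higher and 3 lower.

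Several marker lists moved along here too. Of them, 12 of 14 accessory gland genes were higher, with a summed level between 12.33 and 14.01 at 12g and between 9.27 and 9.40 at 6g, 6 of 8 Malpighian tubule genes were higher and 1 lower, and of 69 cuticle protein genes 3 were higher and 26 lower. Of 30 midgut genes 5 were higher and 1 lower, of 7 fat body genes 2 and 1, and of 6 oenocyte genes 1 and 1. Their part in the result was not tested. Within the second experiment alone the count was 35 (15.3% of all probe sets), and it was 19 or 20 when either 6g array was left out.

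The other 12g against 6g pairs gave 12 members higher and 2 lower in open pupae (13.2% of all probe sets), 10 higher and 17 lower after the cold step (43.0%), and 8 higher and 3 lower in closed containers after the cold step (7.71%). After the cold step in open containers the members' share was below that of all probe sets, and 12g and 6g lay in different experiments in both open pairs. In open pupae Cyp6g1 was higher at 12g, with 10.26 and 10.54 against 8.91 and 8.45 at 6g (1.72 ± 0.27, adjusted p = 0.00302). With the experiment as a term, no member was called in that pair (0.00533%), and 1, 1 and 3 were called without 6g replicate 1, 6g replicate 2 and 12g replicate 2. In closed cold step pupae, all of the second experiment, Cyp313a1 was lower at 12g by 4.31 and Cyp301a1 higher by 1.64 (adjusted p = 0.0175 and 0.00257), the opposite directions to those without the cold step. The count there was 1 without 6g replicate 1 and 7 without 12g replicate 1. For open cold step pupae it was 15 without 6g replicate 1.

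**Figure D5:**
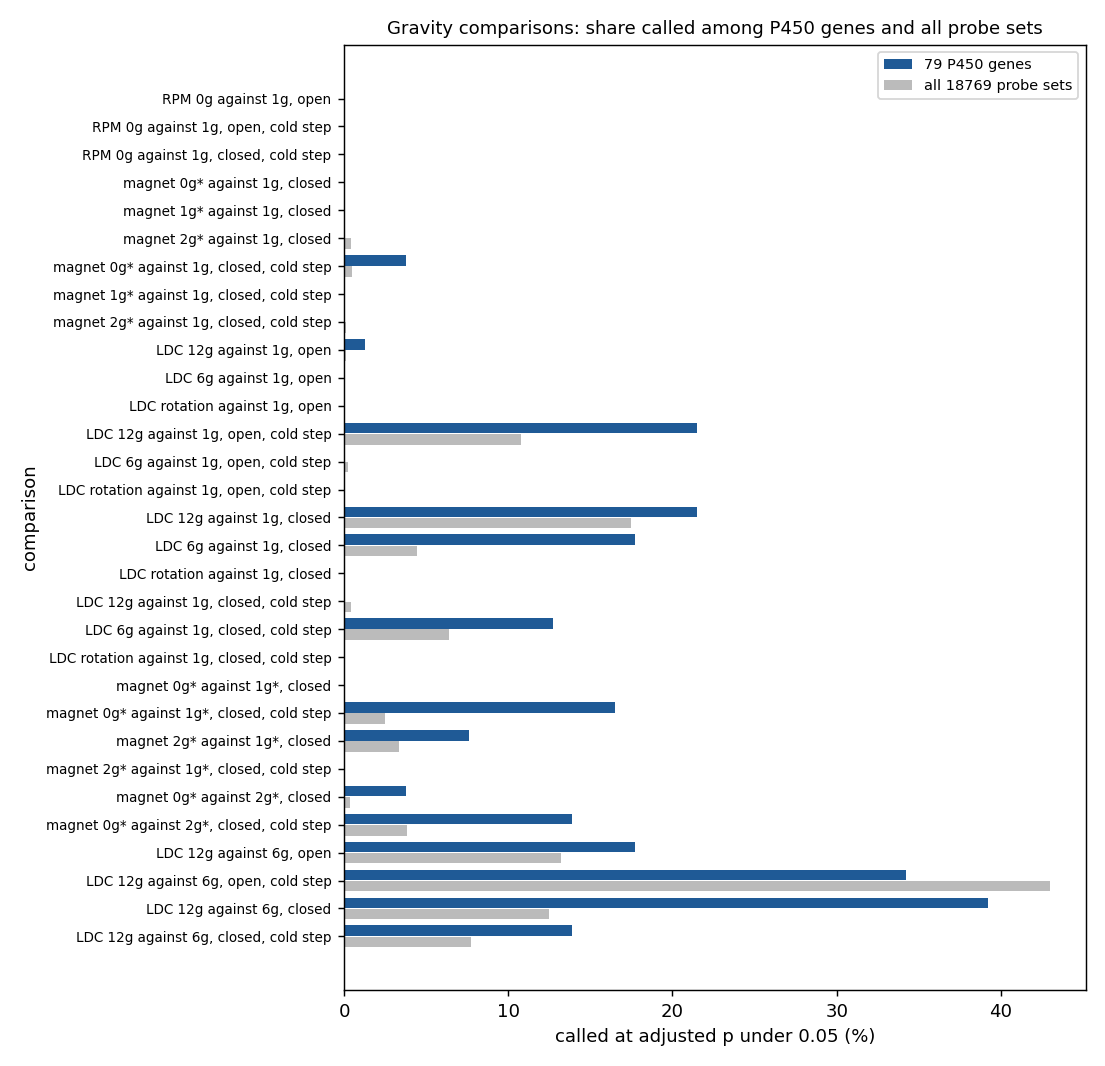
Share of the 79 P450 genes (blue) and of all 18769 probe sets (grey) called at an adjusted p under 0.05 in the 31 comparisons of gravity positions. The members' bar is longest for 12g against 6g in closed containers, at 39.2% beside 12.5%, and shorter than the grey bar for 12g against 6g after the cold step in open containers, at 34.2% beside 43.0%.

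Whether the cold response depended on the position, including 1g* and the rotational control, was tested directly. In open LDC pupae the response at 12g differed from that at 1g for 16 members, 4 with a higher and 12 with a lower difference (3.35% of all probe sets), led by Cyp313a1 (-5.38), Cyp4e3 (-3.94) and Cyp4c3 (2.94). The first experiment alone gave 0 higher and 5 lower (1.47%), and the count was 0 without open 12g replicate 2, 7 without 12g cold step replicate 2, 4 without 1g cold step replicate 3 and 5 and 9 without open 1g replicates 2 and 3. In closed LDC pupae 7 members had a higher and 3 a lower response at 6g than at 1g (3.66%), and 1 a lower response at 12g (1.13%), across the 2 experiments. In closed 6g against 1g the count was 1 and 2 without the cold step replicates 6g 1 and 1g 2, and 3, 5 and 6 without 6g replicates 1 and 2 and 1g replicate 2 of the groups without it. For Cyp317a1, the member called at closed 12g, the call was lost without 12g cold step replicate 2, 12g replicate 3 with no cold step, or 1g replicate 1 with or without it. No member was called in the RPM, at 0g*, 1g* or 2g*, or in the LDC at open 6g or on either rotational control (0%, or 0.016% at 1g*). At an unadjusted p under 0.05 there was 1 member in the RPM (3.22% of all probe sets), 10, 5 and 5 at 0g*, 1g* and 2g* (4.35%, 3.49% and 3.72%), 4 at open 6g (5.89%), and 10 and 0 on the open and closed rotational control (13.2% and 1.47%). Without 1g replicate 3 after the cold step 1 member was called at 0g*, and without rotational replicate 1 after it 5 on the open rotational control.

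In the magnet, in the RPM and at 6g and 1g in the LDC, the closed container was followed by between 0 and 6 calls a comparison, and by more in some of the other LDC pairs. In the magnet none was called without the cold step (0%, with 7 members and 4.89% of all probe sets at an unadjusted p under 0.05), and after it 5 rose and 1 fell (1.58%). Cyp4e3 read 8.66, 7.53 and 7.10 in closed cold step pupae and 6.01, 5.53 and 5.14 in open ones (2.20 ± 0.38, adjusted p = 0.00156), and Cyp6a17, a gene of temperature preference, rose by 0.88 (adjusted p = 0.0105). The count was 2 without open replicate 1 or 3 and 1 without closed replicate 3. At 6g in the LDC none was called with or without the cold step (0%), with 1 and 5 members at an unadjusted p under 0.05 (2.84% and 6.55% of all probe sets).

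In the RPM none was called at 1g after the cold step (0.00533%, with 12 members and 12.4% of all probe sets at an unadjusted p under 0.05), and at 0g none rose and 6 fell (1.49%). Cyp6a20 read 5.68, 5.24, 5.76 and 5.78 in closed 0g pupae and 7.05, 7.80 and 7.63 in open ones (-1.88 ± 0.35, adjusted p = 0.0179). Cyp6g1 read 7.57, 7.90, 7.98 and 7.18 in closed 0g pupae and 9.42, 9.72 and 9.51 in open ones (-1.89 ± 0.44, adjusted p = 0.0387). In closed 1g pupae Cyp6g1 split, with 8.96 and 9.02 on a pair of arrays and 7.42 and 6.80 on the other two, against 9.27, 9.19 and 9.18 in open ones. Cyp6a20 split on the same arrays, with 7.27 and 6.80, and 5.57 and 5.46, against 7.24, 6.85 and 6.44 in open ones. The count of 6 was 0 without open replicate 2 or 3 or closed replicate 4, 1 without closed replicate 1 and 2 without open replicate 1.

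The remaining closed against open pairs of the LDC ran across experiments in whole or in part. At 1g 4 members rose and none fell without the cold step (3.86% of all probe sets), and 5 rose and 1 fell after it (3.63%). Cyp6g1 read 10.23, 10.05 and 10.03 in closed 1g pupae and 9.51, 8.39 and 8.76 in open ones (1.22 ± 0.22, adjusted p = 0.00395), where the open array of the first experiment read 9.51. Within the first experiment 3 members rose and 2 fell without the cold step (2.37%) and 1 rose after it (0.725%). Without the cold step the count was 2 without closed replicate 1 or 2 or open replicate 2 and 11 without open replicate 1, and after it 3 and 0 without closed replicates 1 and 2 and 13 and 1 without open replicates 1 and 3. At 12g 6 rose and 18 fell without the cold step (23.4%) and 5 rose and 2 fell after it (12.9%), with 12g closed in the second and 12g open in the first experiment. The count was 12 without closed replicate 1 and 8 and 15 without open replicates 1 and 2 in pupae without the cold step, and 3 and 4 without closed replicates 1 and 2 after it. On the rotational control none was called without the cold step (0.229%, with 9 members and 23.3% of all probe sets at an unadjusted p under 0.05, and 9 calls without open replicate 1), and 8 rose and 24 fell after it (28.7%). Cyp313a1 read 5.98 and 5.08 there in closed pupae and 8.80, 12.55 and 12.40 in open ones (-5.72 ± 1.04, adjusted p = 0.000649), and Cyp304a1 rose by 2.95 (adjusted p = 0.000125). The first experiment alone, with a single open array, gave 4 rises and no fall on the rotational control (1.21%). Leaving out open replicate 2 or 3 gave 18 and 15 calls, and leaving out closed replicate 1 or 2 gave 18 and 17.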

How the data were processed

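Total RNA of late Oregon R pupae was measured on 90 Affymetrix Drosophila Genome 2 arrays. The deposited values are log2 expression values that the authors made from the scanner files by background correction, quantile normalization and median polish (RMA). RMA removes shifts that all probe sets share and adds the probes of a set together, so signal shared between close P450 copies remains. Array medians differed between the 3 facilities, which were analysed separately. RMA and limma are named in the submitters' notes, with versions not given in the sources used here. Arrays carry no read depth, and precision is set by how many arrays a group holds.

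Of 18952 probe sets, 183 controls were left out and 18769 tested. Gene symbols came from the platform annotation: 13647 probe sets had 1 symbol, 402 several and 4720 none. All 79 members were found in the RefSeq gene table (Release 6), which gave chromosomes and neighbours only. No sequence was used. For each facility, limma (3.58.1, R 4.3.3) was fitted to all groups at once with 1 mean per group and a shared spread. Benjamini-Hochberg adjustment was made over all 18769 probe sets within each of 68 comparisons. Of these, 21 set an altered gravity position, the 1g* position or the rotational control against 1g, and 10 were between gravity positions. Another 15 were of the cold step, 12 of closed against open containers and 10 interactions of position with the cold step. Tables and figures were made with Python 3.11.15, pandas 2.3.3 and matplotlib 3.10.9, and the fit was tested on simulated data with known changes.

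Groups were taken from the labels. The members, the marker lists and the tests were chosen with earlier results of these data known. Members named were the 5 with the largest called rise and fall in a comparison, the highest and lowest members, the members with the smallest p where none was called, and 17 genes of known function or interest, which were Cyp6g1, Cyp6a2, Cyp6a8, Cyp6a20, Cyp6t3, Cyp4g1, Cyp4g15, Cyp4d21, Cyp4e2, Cyp12a4, Cyp301a1, Cyp303a1, Cyp311a1, Cyp310a1, Cyp313a4, Cyp28a5 and Cyp9f2. The genes set beside their chromosomal neighbours were added after their values were seen.

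Alternatives left out each array in turn, left out dim probe sets, fitted only the groups compared, repeated the quantile normalization, used a trended and robust spread, took the mean over probe sets of a gene, or added the replicate number as a block. Added after seeing the data were a term for the second LDC experiment and fits within either experiment.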

Additional observations from a re-analysis of the deposited data

Results flagged for a closer look

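In groups of 4 arrays, 5 of 48 sets of values of the members named in the RPM or on the fixed list had an array far from the other 3, where chance alone flags about 1 in 20. Groups of this size were only the closed cold step pupae of the RPM. At 0g 1 array read 5.88 for Cyp313a4, against 4.69 to 4.78 on the others, 11.65 for Cyp4g1, against 11.86 to 11.90, and 3.13 for Cyp303a1, against 3.36 to 3.40. At 1g 1 array read 3.28 for Cyp6t3, against 3.62 to 3.68, and 3.05 for Cyp4d21, against 3.18 to 3.19. Those of Cyp303a1, Cyp6t3 and Cyp4d21 are close to the lower end of the array's range.

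The cold response of 16 members differed between 12g and 1g in open LDC pupae by limma's interaction term. The difference of the log2 differences was negative for Cyp313a1 (-5.38), Cyp4e3 (-3.94), Cyp6d5 (-2.86), Cyp309a2 (-2.54), Cyp28d1 (-2.10), Cyp12a4 (-1.96), Cyp9b1 (-1.83), Cyp9b2 (-1.69), Cyp317a1 (-1.52), Cyp9f2 (-1.51), Cyp28a5 (-1.46) and Cyp6a22 (-1.10). It was positive for Cyp4c3 (2.94), Cyp4g15 (1.75), Cyp301a1 (1.54) and Cyp6a16 (0.93). All 12g arrays were of the first experiment and 1g held both. Within the first experiment, with 1 array an arm at 1g, 5 were called.

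In closed LDC pupae the cold response at 6g differed from that at 1g for 10 members, with 5.72 for Cyp313a1, 3.56 for Cyp6a20, 2.50 for Cyp6a18, 1.86 for Cyp9b1, 1.78 for Cyp9f2, 1.75 for Cyp4p3 and 1.30 for Cyp6g1, and with -2.07 for Cyp301a1, -1.28 for Cyp6a16 and -1.06 for Cyp4d2. At closed 12g it differed for Cyp317a1 (-1.80). The 6g and 12g groups were of the second experiment and the 1g groups of the first, so gravity and experiment cannot be told apart here.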

How the results depend on the processing

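Signs were checked for up to 5 of the largest called rises and 5 of the largest called falls a comparison, and not for other named differences. None of those checked turned its sign under any alternative. Of 279 such differences, 21 lost their call when quantile normalization was repeated, 6 with a trended and robust spread, 111 with only the groups compared and 19 with the replicate block, and 0 of 251 without dim probe sets. With a term for the second experiment 41 of 181 LDC differences lost their call, within the first experiment only 48 of 69 and within the second only 0 of 62. Over all fits that left out 1 array, 460 of 1589 were lost. Taking the mean over probe sets moved no median of the members by more than 0.033. In the comparisons with at least 10 members called, the number called moved by more than 1.5 times as follows. With only the groups compared it was 2 at 12g against 1g after the open cold step, 25 at closed 6g against 1g, 7 at 0g* against 2g* after the cold step, 5 and 0 at 12g against 6g in open and in closed cold step pupae, 13, 8 and 19 for the cold step at 2g*, in open 1g and on the open rotational control, 0 and 0 for closed against open at 12g without the cold step and on the cold step rotational control, and 0 and 22 for the interactions at open 12g and closed 6g, and all closed against open comparisons together gave 19. With a term for the second experiment it was 3 and 4 at closed 6g against 1g without and with the cold step, 0 for open 12g against 6g and 15 for closed against open at 12g. The last was also 15 without dim probe sets. Repeated quantile normalization gave 17 at 0g* against 2g* after the cold step. The second experiment alone gave 18 at closed 12g against 6g after the cold step. The first alone gave 5 and 1 for the cold step in open 1g and on the open rotational control, 4 for closed against open on the cold step rotational control and 5 for the interaction at open 12g. Of the 44 comparisons with fewer calls, 15 moved by that much with only the groups compared, 4 with repeated quantile normalization, 4 without dim probe sets and 3 with the replicate block, as did 10 of 22 with the experiment term, 5 of 13 within the first and 2 of 9 within the second experiment. With only the groups compared the count was 0 at 0g* against 1g after the cold step (3 in the fit reported), 1 at 2g* against 1g* (6) and 0 at 0g* against 2g* (3) without it, 1 and 0 for closed against open after the cold step at 1g in the magnet and the LDC (6 each), and 16 for closed against open at 0g in the RPM (6). It was 18 for the cold step on the closed rotational control (6), and 15 for closed against open at 12g after the cold step with the experiment term (7). The cause was not tested, though the restricted fits held fewer arrays by construction.

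Leaving out 1 array at a time, the total of calls ran between 48 and 80 for gravity against 1g, between 103 and 120 between positions, between 295 and 321 for the cold step, between 68 and 94 for closed containers and between 11 and 32 for interactions. At 12g against 1g the count ran between 6 and 18 after the open cold step, 8 and 14 in closed and 0 and 12 in open pupae, and at closed 6g between 2 and 9 without and 1 and 8 with the cold step. For 12g against 6g it ran between 1 and 15 in open, 15 and 27 in open cold step, 19 and 28 in closed and 1 and 12 in closed cold step pupae. In the magnet after the cold step it ran between 0 and 7 for 0g* against 1g, 5 and 9 against 1g* and 8 and 15 against 2g*. For the cold step it ran between 0 and 25 in the RPM at 1g, 7 and 13 at 0g*, 31 and 41 in open 1g magnet pupae, 22 and 30 in open 1g, 26 and 44 on the open rotational control, 21 and 24 at open and 23 and 34 at closed 6g in the LDC. For closed against open it ran between 8 and 19 at 12g and 15 and 38 on the cold step rotational control, and for the interactions between 0 and 19 at open 12g and 1 and 8 at closed 6g.

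Same-numbered replicates deviated together in every pair (r over 0.1, 3 pairs) only in 4 comparisons, 2g* against 1g* after the cold step, the rotational control against 1g in open pupae, and the cold step in open 1g and on the open rotational control. The last 3 each pair the single first-experiment arrays. With the replicate block the totals were 72 for gravity against 1g, 122 between positions, 303 for the cold step, 78 for closed containers and 29 for interactions. The block moved the count in the RPM to 1 for the cold step at open 0g and 2 for closed 0g, against 3 and 6, and at 2g* against closed 1g to 1, against 0.

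Groups held 2 to 4 arrays, and where leaving one out left a single array, it was taken to vary like the other groups. The mixed LDC experiments, the unknown sex of the pupae and probes shared by close copies limit every count. Dim members such as Cyp316a1 lie near the lower end of the range, where a change would be hard to see.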
